A study of Oryza sativa with 18 samples.

Results

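A set of 8 gibberellin pathway genes was followed in rice leaves under salt. They cover 2 activating enzymes, 4 inactivating enzymes, the receptor and its repressor target, and were picked by identifier as 8 of the 37863 rows of the count table. They are GA20ox2 (also called SD1, Os01g0883800), GA3ox2 (Os01g0177400), GA2ox1 (Os05g0158600), GA2ox3 (Os01g0757200), GA2ox6 (Os04g0522500), EUI1 (Os05g0482400), GID1 (Os05g0407500) and SLR1 (Os03g0707600). The names are those that the member list pairs with the identifiers, since the count table holds identifiers only.

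Leaf RNA was sequenced in 18 libraries, from the FKBP57 knockout line, the FKBP73 knockout line and the wild-type cultivar Ningjing 4. Both knocked-out genes code for FK506-binding proteins, which are prolyl isomerases. Each genotype was sampled after 150 mM NaCl for 4 hours and in normal nutrient solution without added salt (control), with 3 biological replicates in each of the 6 groups per the series design. The labels give no time for the control plants, no plant age and no number of independent lines per knockout, so salt and a difference in harvest time or handling cannot be told apart. Whether either knockout lacks the transcript of its target was not analysed here.

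Gibberellins are diterpenoid hormones that promote stem and leaf elongation. GA 20-oxidases and GA 3-oxidases carry out the last steps to the bioactive forms, and loss of the 20-oxidase SD1 gave the semi-dwarf rice of the green revolution. GA 2-oxidases inactivate the hormone by hydroxylation, and EUI1, a cytochrome P450, does so by epoxidation. GID1 is the soluble receptor in rice. Once it binds gibberellin it captures SLR1, the DELLA protein that restrains growth, and SLR1 is then degraded, so that SLR1 activity is set largely at the protein level, which RNA counts do not measure. In many plants the hormone lowers the transcripts of its own 20- and 3-oxidases and of its receptor and raises those of 2-oxidases.

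Levels are given as CPM, read counts scaled by TMM-adjusted library size, for replicates 1, 2 and 3 in that order. Changes are log2 fold changes from edgeR's quasi-likelihood test across 25957 genes. Each has a standard error (SE) derived from the F statistic of the test, and a Benjamini-Hochberg adjusted p over all those genes. A gene is called when that p is under 0.05. Gene lengths were not used, so levels are compared between libraries and never between genes. Library totals ran from 27601098 to 39894394 counts. The expression profile of 3 libraries (FKBP57 knockout salt 3, FKBP57 knockout control 3 and wild-type control 3) stood apart in the first principal components. Results that depend on them are given with and without them. The FKBP57 knockout control libraries were spread out as a group, and control 2 also lay far from control 1. Control 1 had an r of log2 CPM of 0.918 with control 2 and 0.937 with control 3. The pick of control 3 in that group was made by eye. The label of the tissue as leaf was checked on 6 photosynthesis genes, which together held 5010 to 16800 CPM in salt libraries and 7350 to 50400 CPM in control libraries. A list of 3 root genes together held 3.93 to 9.17 CPM in salt libraries and 4.28 to 18.9 CPM in control libraries, with up to 2 of its genes at 0 in a library.

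With all 18 libraries fitted, every one of the 8 members that was called under salt was higher. The FKBP57 knockout had 3 called members of 8, GA20ox2, GA2ox6 and GID1, beside 6.32% of all genes tested. The FKBP73 knockout also had 3, namely GA20ox2, GA2ox6 and GID1, beside 14.3% of all genes. In wild type 4 of the 8 members were called, GA20ox2, GA2ox3, GA2ox6 and GID1, beside 24.5% of all genes. Averaged over genotypes 4 members were called beside 42.8% of all genes, a share too close to the background to be a result about the set. The count was 1 in the FKBP57 knockout without its control 1, control 3, salt 1 or salt 2, and 1 in the FKBP73 knockout without its control 1 or salt 1. Without the 3 libraries that stood apart, 3 members were called in the FKBP57 knockout and 4 in the FKBP73 knockout, all higher, beside 4695 and 5615 of the 26281 genes then tested. In wild type 4 were then called higher and 1, GA3ox2, lower, beside 9392 genes, and in the average 4 higher and 1, again GA3ox2, lower, beside 13061 genes. The median log2 fold change of the 8 members was 0.54 in the FKBP57 knockout, 0.76 in the FKBP73 knockout and 0.60 in wild type, against −0.10, −0.03 and −0.06 over all genes tested. All 8 members passed the filter on low counts, but GA2ox6 reached the filter's level of 0.316 CPM in 5 of 9 salt libraries and in 0 of 9 control libraries. It entered the test through the salt libraries alone, so its place in these counts and medians is no support for them. With all 18 libraries fitted, it is among the called members of each genotype and of the average.

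**Figure D1:**
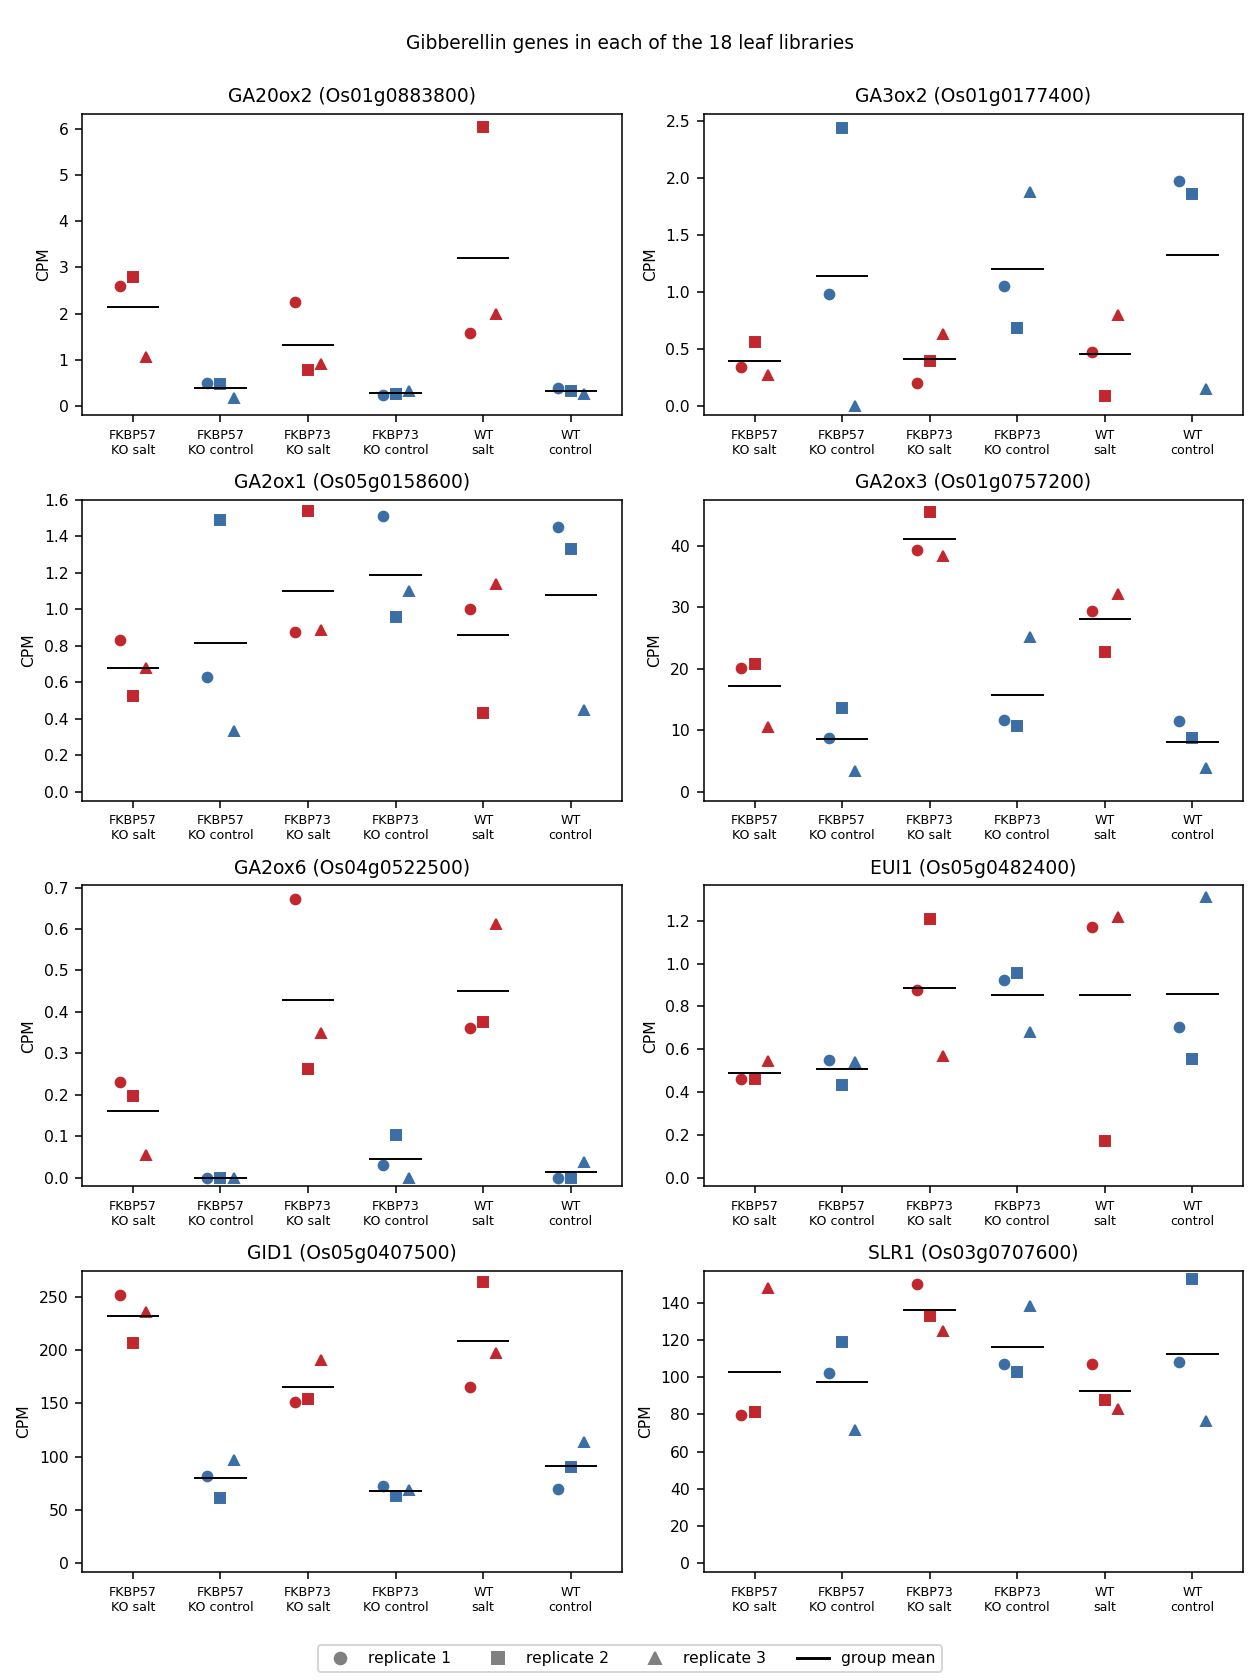
CPM of the 8 gibberellin genes in each of the 18 libraries, with salt groups left of control groups within each genotype; each point is a library and each bar a group mean (n = 3), and the vertical scale differs between genes. The salt libraries of GID1 lie between 151 and 264 CPM and its control libraries between 61.2 and 114 CPM, while the libraries of SLR1 and EUI1 overlap between treatments.

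GA20ox2, the 20-oxidase of the semi-dwarf locus, rose under salt in all 3 genotypes. FKBP57 knockout leaves had 2.59, 2.79 and 1.06 CPM under salt, against 0.510, 0.488 and 0.166 CPM in control. FKBP73 knockout leaves had 2.25, 0.785 and 0.919 CPM under salt, against 0.247, 0.273 and 0.324 CPM in control. Wild-type leaves had 1.58, 6.03 and 2 CPM under salt, against 0.386, 0.333 and 0.263 CPM in control. Every salt library lay above every control library, across genotypes as well as within them. Wild-type salt 2 lay far above its group, and FKBP57 knockout control 3 was the lowest of the 18 libraries. The gene was thinly counted in control, with 26 to 36 counts per group of 3 libraries, against 130 to 341 counts per salt group.

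The log2 fold change of GA20ox2 was 2.44 in the FKBP57 knockout (SE 0.61, adjusted p = 0.025), 2.22 in the FKBP73 knockout (SE 0.61, adjusted p = 0.025) and 3.26 in wild type (SE 0.62, adjusted p = 0.002), and 2.64 averaged over genotypes (SE 0.35, adjusted p = 3.8e-05). The wild-type value was 2.43 without wild-type salt 2, with an adjusted p of 0.0094. The calls in the knockouts were less secure. For the FKBP57 knockout the adjusted p was 0.063 and 0.065 without control 1 and control 3, 0.088 and 0.092 without salt 1 and salt 2, and 0.16 when only its own 6 libraries were fitted. For the FKBP73 knockout it was 0.092, 0.075 and 0.069 without control 1, 2 and 3, and 0.15 without salt 1, where the log2 fold change was 1.59.

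GA3ox2, the 3-oxidase that makes the bioactive hormone from the product of the 20-oxidases, was not called under salt. It had 0.345, 0.559 and 0.271 CPM under salt in the FKBP57 knockout, against 0.982, 2.44 and 0 CPM in control. FKBP73 knockout leaves had 0.204, 0.393 and 0.634 CPM under salt, against 1.05, 0.684 and 1.88 CPM in control. Wild-type leaves had 0.473, 0.0866 and 0.799 CPM under salt, against 1.97, 1.86 and 0.15 CPM in control. Only in the FKBP73 knockout were all 3 salt libraries below all 3 control libraries. In the FKBP57 knockout and in wild type, control 3 lay below the salt group or inside its range while the other control libraries lay above it.

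The fitted log2 fold change of GA3ox2 was −1.56 in the FKBP57 knockout (SE 1.09, adjusted p = 0.43), −1.55 in the FKBP73 knockout (SE 1.09, adjusted p = 0.38) and −1.55 in wild type (SE 1.07, adjusted p = 0.30). Averaged over genotypes it was −1.55 (SE 0.62, adjusted p = 0.056). The average passed the threshold when a control library that stood apart was left out. Those libraries, wild-type control 3 and FKBP57 knockout control 3, held the lowest GA3ox2 of the controls, at 0.15 and 0 CPM. Leaving them out therefore moves the estimate down and leaves fewer than 3 libraries in their groups, so these values are no independent support. The average was −1.73 (adjusted p = 0.026) without wild-type control 3, −1.76 (adjusted p = 0.0096) without FKBP57 knockout control 3 and −1.84 (adjusted p = 0.0029) without the 3 libraries that stood apart. Without those 3 libraries the wild-type value was −2.07 (adjusted p = 0.035). With all 18 libraries kept, DESeq2 gave an average of −1.58 with an adjusted p of 0.026. Of the activating enzymes, GA20ox2 thus rose, while GA3ox2 was not called and had negative estimates with wide errors.

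GA2ox3, an inactivating 2-oxidase, was well counted, with 11890 counts over the 18 libraries. FKBP57 knockout leaves had 20.1, 20.8 and 10.6 CPM of GA2ox3 under salt, against 8.83, 13.6 and 3.41 CPM in control. FKBP73 knockout leaves had 39.3, 45.4 and 38.4 CPM under salt, against 11.6, 10.7 and 25.1 CPM in control. Wild-type leaves had 29.4, 22.7 and 32.2 CPM under salt, against 11.5, 8.78 and 3.94 CPM in control. Salt and control libraries were apart in the FKBP73 knockout and in wild type and overlapped in the FKBP57 knockout, where salt 3 lay below control 2.

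GA2ox3 rose under salt in wild type, by a log2 fold change of 1.79 (SE 0.48, adjusted p = 0.015), and averaged over genotypes, by 1.39 (SE 0.27, adjusted p = 0.00097). The wild-type call was lost without wild-type salt 3, at 1.69 with an adjusted p of 0.054. In the FKBP57 knockout the value was 0.99 (SE 0.47, adjusted p = 0.24) and in the FKBP73 knockout 1.38 (SE 0.47, adjusted p = 0.064). The FKBP73 knockout passed the threshold with DESeq2 (adjusted p = 0.029) and when only its own 6 libraries were fitted (adjusted p = 0.016). It also passed without FKBP73 knockout control 3 (1.88, adjusted p = 0.038) and without the 3 libraries that stood apart (adjusted p = 0.0054). That control held the highest GA2ox3 of its group, at 25.1 CPM, so leaving it out moves the estimate up. The 3 libraries that stood apart include none of the FKBP73 knockout, so leaving them out acts only through the shared fit. These 2 values are therefore no independent support. By group mean GA2ox3 ran from 41.0 ± 3.78 CPM in FKBP73 knockout salt leaves through 28.1 ± 4.84 in wild-type salt, 17.1 ± 5.68 in FKBP57 knockout salt, 15.8 ± 8.09 in FKBP73 knockout control and 8.63 ± 5.12 in FKBP57 knockout control to 8.07 ± 3.83 in wild-type control (SD, n = 3 each). The 3 salt groups did not overlap each other, and each control group overlapped its neighbours in this order. Neither knockout was called against wild type, and the knockouts were not tested against each other.

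GA2ox6, also a 2-oxidase, was close to absent in control leaves and present at low counts under salt, with 112 counts over the 18 libraries. FKBP57 knockout leaves had 8, 6 and 2 counts under salt, against 0, 0 and 0 in control. FKBP73 knockout leaves had 23, 8 and 11 counts under salt, against 1, 3 and 0 in control. Wild-type leaves had 13, 13 and 23 counts under salt, against 0, 0 and 1 in control. In the FKBP73 knockout and in wild type every salt library held more counts than any control library of any genotype, and in the FKBP57 knockout salt 3 held fewer than FKBP73 knockout control 2.

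In the FKBP57 knockout GA2ox6 had 16 counts under salt against 0 in control. Set against a floor of 3 counts over the control group, this gave a ratio of 4.41, and the 95% counting interval of the ratio without that floor reached down to 3.19. In the FKBP73 knockout 42 counts under salt against 4 in control gave a ratio per library size of 10.1, with a 95% interval of 3.66 to 38.7. In wild type 49 counts against 1 gave a ratio of 48.3, with a 95% interval of 8.28 to 1950. These intervals come from counts pooled over the 3 libraries of each group, so they leave out variation between replicates and are not limits on the salt effect. They also treat reads as independent molecules, which reads without molecular identifiers are not, so they can be too narrow. The edgeR quasi-likelihood adjusted p was 0.046 in the FKBP57 knockout, 0.035 in the FKBP73 knockout, 0.0058 in wild type and 0.00017 averaged over genotypes.

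The call of GA2ox6 in the FKBP57 knockout was lost without control 1, 2 or 3, salt 1 or salt 2, with adjusted p between 0.069 and 0.14, and without a low-count filter it was 0.051. In the FKBP73 knockout it was lost without control 1 or 3 or any salt library, with adjusted p between 0.054 and 0.14. The calls in wild type and in the average held in every alternative that tested the gene.

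GA2ox1, another 2-oxidase, did not separate salt from control and had 580 counts over the 18 libraries. It ranged from 0.526 to 0.834 CPM under salt and 0.333 to 1.49 CPM in control in the FKBP57 knockout, from 0.876 to 1.54 CPM under salt and 0.957 to 1.51 CPM in control in the FKBP73 knockout, and from 0.433 to 1.14 CPM under salt and 0.450 to 1.45 CPM in control in wild type. The ranges overlapped in each genotype. Its log2 fold changes were −0.28 in the FKBP57 knockout (SE 0.56, adjusted p = 0.81), −0.11 in the FKBP73 knockout (SE 0.54, adjusted p = 0.92), −0.34 in wild type (SE 0.54, adjusted p = 0.68) and −0.24 averaged over genotypes (SE 0.32, adjusted p = 0.56).

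EUI1, the P450 that inactivates gibberellin by epoxidation, also had overlapping treatments. It had 0.460, 0.460 and 0.543 CPM under salt in the FKBP57 knockout, against 0.550, 0.431 and 0.541 CPM in control. For EUI1 the FKBP73 knockout had 0.876, 1.21 and 0.570 CPM under salt, against 0.925, 0.957 and 0.680 CPM in control. Wild-type leaves had 1.17, 0.173 and 1.22 CPM under salt, against 0.703, 0.556 and 1.31 CPM in control. Wild-type salt 2 was the lowest of the 18 libraries, and it was the library with the highest GA20ox2. The log2 fold changes under salt were −0.05 in the FKBP57 knockout, 0.05 in the FKBP73 knockout and 0.01 in wild type, and 0.00 averaged over genotypes (SE 0.32). The errors of GA2ox1 and EUI1 still allow moderate changes in either direction.

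GID1, the receptor, rose under salt in all 3 genotypes. FKBP57 knockout leaves had 252, 207 and 236 CPM under salt, against 81.7, 61.2 and 96.4 CPM in control. For GID1 the FKBP73 knockout had 151, 154 and 191 CPM under salt, against 72.2, 63.4 and 69.0 CPM in control. Wild-type leaves had 165, 264 and 197 CPM under salt, against 69.9, 90.3 and 114 CPM in control. Every salt library of any genotype lay above every control library of any genotype.

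The level of GID1 was 2.90-fold higher under salt in the FKBP57 knockout (log2 1.54, SE 0.22, adjusted p = 0.00068), 2.43-fold higher in the FKBP73 knockout (log2 1.28, SE 0.22, adjusted p = 0.0012) and 2.29-fold higher in wild type (log2 1.19, SE 0.22, adjusted p = 0.0015). Averaged over genotypes the rise was 2.53-fold (log2 1.34, SE 0.12, adjusted p = 1.4e-06). These calls held in every alternative run, 13 in each genotype and 24 for the average, with log2 fold changes between 0.99 and 1.70. In order of group means the salt groups stood at 232 ± 22.5 CPM in the FKBP57 knockout, 209 ± 50.7 in wild type and 166 ± 22.4 in the FKBP73 knockout, and the control groups at 91.3 ± 21.9 in wild type, 79.8 ± 17.7 in the FKBP57 knockout and 68.2 ± 4.43 in the FKBP73 knockout (SD, n = 3 each). The lowest salt library, at 151 CPM, and the highest control library, at 114 CPM, marked the only gap between neighbouring groups in this order.

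SLR1, the DELLA repressor, showed no called change. FKBP57 knockout leaves had 79.5, 81.3 and 148 CPM under salt, against 102, 119 and 71.8 CPM in control. For SLR1 the FKBP73 knockout had 150, 133 and 125 CPM under salt, against 107, 103 and 138 CPM in control. Wild-type leaves had 107, 87.7 and 82.8 CPM under salt, against 108, 153 and 76.3 CPM in control. Salt and control overlapped in each genotype. The log2 fold changes were 0.08 in the FKBP57 knockout (SE 0.28, adjusted p = 0.90), 0.23 in the FKBP73 knockout (SE 0.28, adjusted p = 0.63), −0.28 in wild type (SE 0.28, adjusted p = 0.47) and 0.01 averaged over genotypes (SE 0.16, adjusted p = 0.98). The FKBP57 knockout value turned to −0.45 and the average to −0.23 without the 3 libraries that stood apart. The receptor transcript thus rose while no change was called for the transcript of its target.

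**Figure D2:**
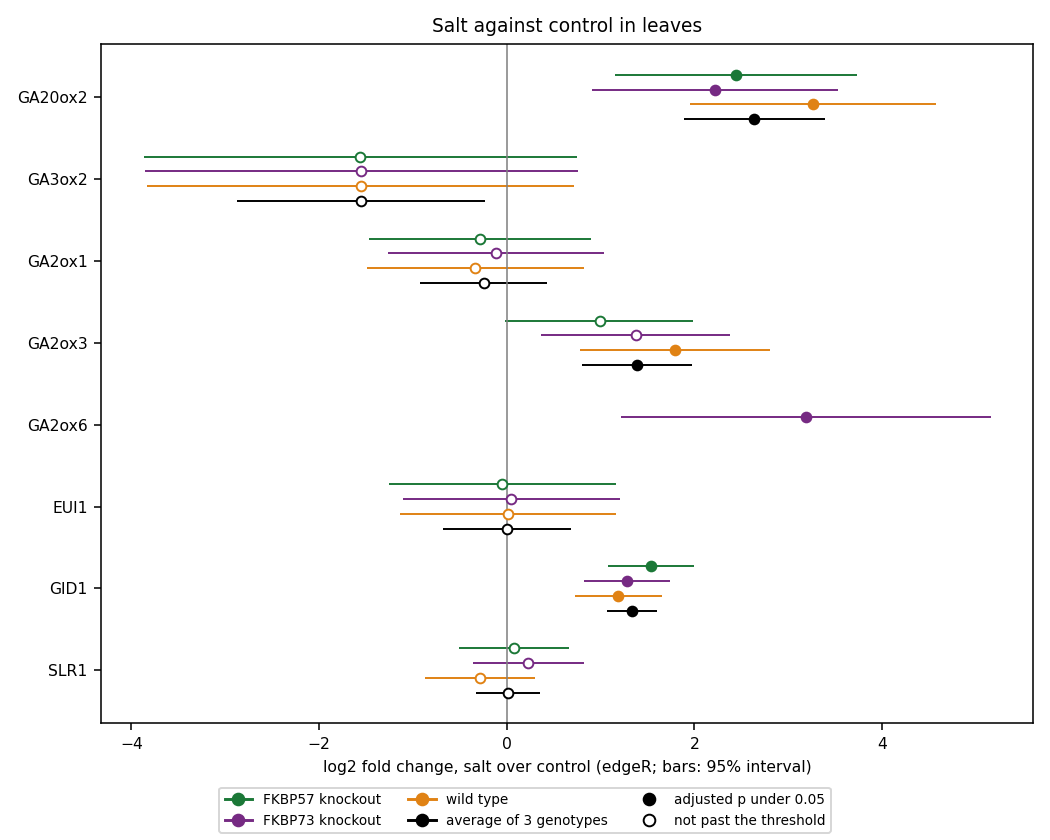
Log2 fold change under salt against control for each gibberellin gene, by genotype and averaged over genotypes, with 95% confidence intervals and filled points where the adjusted p is under 0.05; GA2ox6 is drawn for the FKBP73 knockout only, since its control counts in the other genotypes are 0 and 1. GID1 lies between 1.19 and 1.54 with narrow intervals, GA20ox2 between 2.22 and 3.26, and GA3ox2 near −1.55 with intervals that cross 0 in each genotype.

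The control libraries differed from each other in markers of dividing cells, and several gibberellin genes moved with these and with other marker lists. A list of 6 division genes, which mark the growing leaf base, together held 43.8, 379 and 24.9 CPM in FKBP57 knockout control libraries, 50.1, 142 and 88.7 CPM in FKBP73 knockout control libraries and 234, 168 and 27.8 CPM in wild-type control libraries. Under salt the sum was 21.3, 23.7 and 95.1 CPM in the FKBP57 knockout, 36.6 to 46.7 CPM in the FKBP73 knockout and 20.3 to 23.5 CPM in wild type. The median log2 fold change of the 6 division genes under salt was −1.69 in the FKBP57 knockout, −1.29 in the FKBP73 knockout and −3.34 in wild type. In wild type 5 of the 6 were called lower, beside 24.5% of all genes called in either direction, and 0 were called in either knockout. Of 3 secondary wall genes, which mark vascular and fibre cells, 2 were called lower in the FKBP73 knockout, beside 14.3% of all genes. In wild type 3 were called lower, beside 24.5% of all genes. Their median was −0.12 in the FKBP57 knockout. The median of 7 circadian clock genes was 0.44 in the FKBP57 knockout, 0.46 in the FKBP73 knockout and 0.22 in wild type. These medians hide changes in both directions, from −0.76 to 0.94, from −0.81 to 1.27 and from −0.79 to 1.19 in that order. Of the 7, 0 were called in the FKBP57 knockout, 1 higher in the FKBP73 knockout and 2 higher in wild type. In the average 3 were called higher and 1 lower, beside 42.8% of all genes. The 6 photosynthesis genes had medians of −1.07 in the FKBP57 knockout, −1.47 in the FKBP73 knockout and −0.98 in wild type. In the average 4 of the 6 were called lower, again beside 42.8% of all genes. In bulk leaf RNA, fewer cells of a type and less RNA per cell cannot be told apart.

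FKBP57 knockout control 3 and wild-type control 3 had the lowest division sums of the 9 control libraries. They also had the lowest GA3ox2 of the controls, at 0 and 0.15 CPM, the lowest GA2ox1, at 0.333 and 0.450 CPM, the lowest GA2ox3, at 3.41 and 3.94 CPM, and the lowest SLR1, at 71.8 and 76.3 CPM. The same pair had the highest GID1 of the controls, at 96.4 and 114 CPM. FKBP57 knockout control 2, with the highest division sum, had the highest GA3ox2 of the controls, at 2.44 CPM, and the lowest GID1, at 61.2 CPM. GA2ox3 ran against the photosynthesis sum, with a Pearson r of log2 CPM of −0.84 over the 18 libraries, −0.72 over the 9 salt libraries and −0.72 over the 9 control libraries. With the division sum its r was −0.19 over the 18 libraries, −0.25 over the 9 salt libraries and 0.62 over the 9 control libraries. Over the 9 control libraries GA3ox2 had an r of 0.79 with the division sum, −0.73 with the photosynthesis sum and −0.66 with the clock gene sum. For GA2ox1 these were 0.8, −0.75 and −0.58, for SLR1 0.69, −0.52 and −0.34, and for GID1 −0.72, 0.64 and 0.54. Over the 9 salt libraries r with the division sum was −0.03 for GA3ox2, 0.17 for GA2ox1, 0.84 for SLR1 and −0.15 for GID1. These correlations are descriptions of libraries that share groups. The part of leaf zone, photosynthetic state, growth state or time of day in the salt changes of these genes was not tested.

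**Figure D3:**
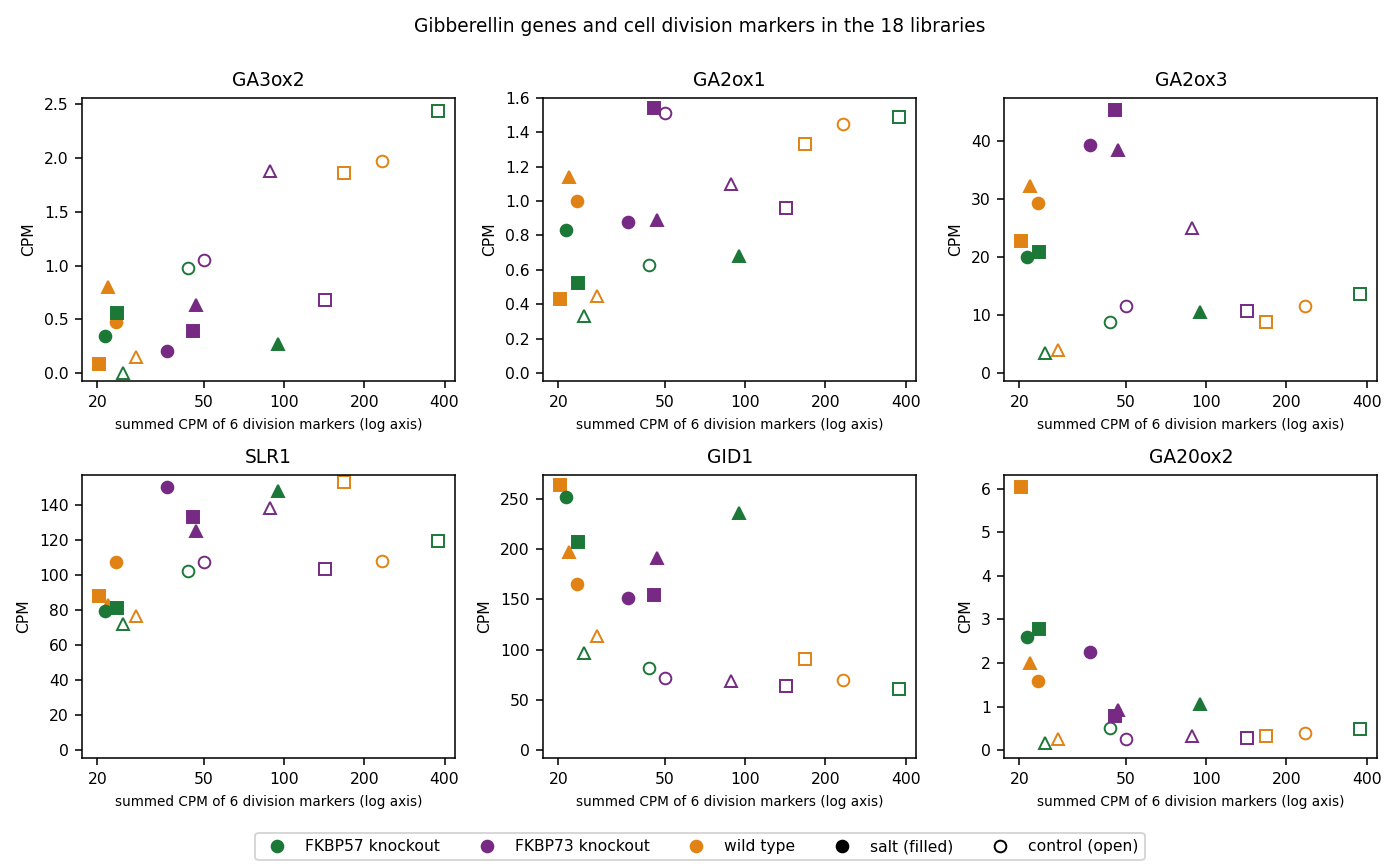
CPM of 6 gibberellin genes against the summed CPM of 6 division markers (log axis) in the 18 libraries, with filled symbols for salt, open symbols for control, colour for genotype, and circle, square and triangle for replicates 1, 2 and 3. Among control libraries GA3ox2 runs from 0 CPM at the lowest division sum, 24.9 CPM, to 2.44 CPM at the highest, 379 CPM; GID1 is at 151 CPM or more in all salt libraries and at 114 CPM or less in all control libraries.

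Within the salt groups, FKBP57 knockout salt 3 stood out. It had the highest division sum under salt, and within its group the lowest GA20ox2, at 1.06 CPM, the lowest GA2ox3, at 10.6 CPM, and the highest SLR1, at 148 CPM. Its GID1 level of 236 CPM lay between those of its replicates.

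No gibberellin gene was called between a knockout and wild type by edgeR's quasi-likelihood test. In the FKBP57 knockout against wild type 0 of 8 members were called in control, beside 0.204% of all genes, and 0 of 8 under salt, beside 0.304% of all genes. In the FKBP73 knockout 0 of 8 were called in control and 0 of 8 under salt, where 0% of all genes were called in either comparison (739 and 1330 genes at an unadjusted p under 0.05, and 24 and 62 genes by DESeq2). At an unadjusted p under 0.05, 1 member passed under salt in the FKBP73 knockout and 0 in the other comparisons, and DESeq2 called 0 members in each of the 4.

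The member with an unadjusted p under 0.05 was GA20ox2 under salt. Its level was lower in the FKBP73 knockout than in wild type by a log2 value of −1.28 (SE 0.56, unadjusted p = 0.038, adjusted p = 0.93), with group means of 1.32 ± 0.809 CPM in the FKBP73 knockout and 3.20 ± 2.46 CPM in wild type (SD, n = 3 each). The groups overlapped, since FKBP73 knockout salt 1, at 2.25 CPM, lay above 2 of the 3 wild-type salt libraries. Without wild-type salt 2 the value was −0.44.

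For some members the libraries did not overlap between genotypes, in comparisons where the shares of all genes called were those just given, at most 0.304%. That is not the share of all genes whose libraries did not overlap, which was not computed. With 3 libraries in each group such gaps can arise without any effect, so they are given as a description only. In the FKBP73 knockout under salt, SLR1 lay above wild type in all libraries, at 125 to 150 CPM against 82.8 to 107 CPM in wild type (log2 0.56, SE 0.28, adjusted p = 0.93). GA2ox3 did so too, at 38.4 to 45.4 CPM against 22.7 to 32.2 CPM in wild type (log2 0.55, adjusted p = 0.93). In control GA2ox3 had a log2 value of 0.96 in the FKBP73 knockout against wild type (SE 0.47, adjusted p = 1), with overlapping libraries.

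In the FKBP57 knockout under salt the direction for GA2ox3 was the opposite, at 10.6 to 20.8 CPM against 22.7 to 32.2 CPM in wild type (log2 −0.71, adjusted p = 0.61). GA2ox6 had 0.0543 to 0.230 CPM in the FKBP57 knockout under salt, below all 3 wild-type salt libraries at 0.361 to 0.612 CPM (log2 −1.48, adjusted p = 0.55). EUI1 was lower in the FKBP57 knockout in all control libraries, at 0.431 to 0.550 CPM against 0.556 to 1.31 CPM in wild type (log2 −0.75, SE 0.56, adjusted p = 1). Under salt the EUI1 value was −0.81 with an adjusted p of 0.63, and the libraries overlapped because of wild-type salt 2. None of these differences passed the test across all genes.

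**Figure D4:**
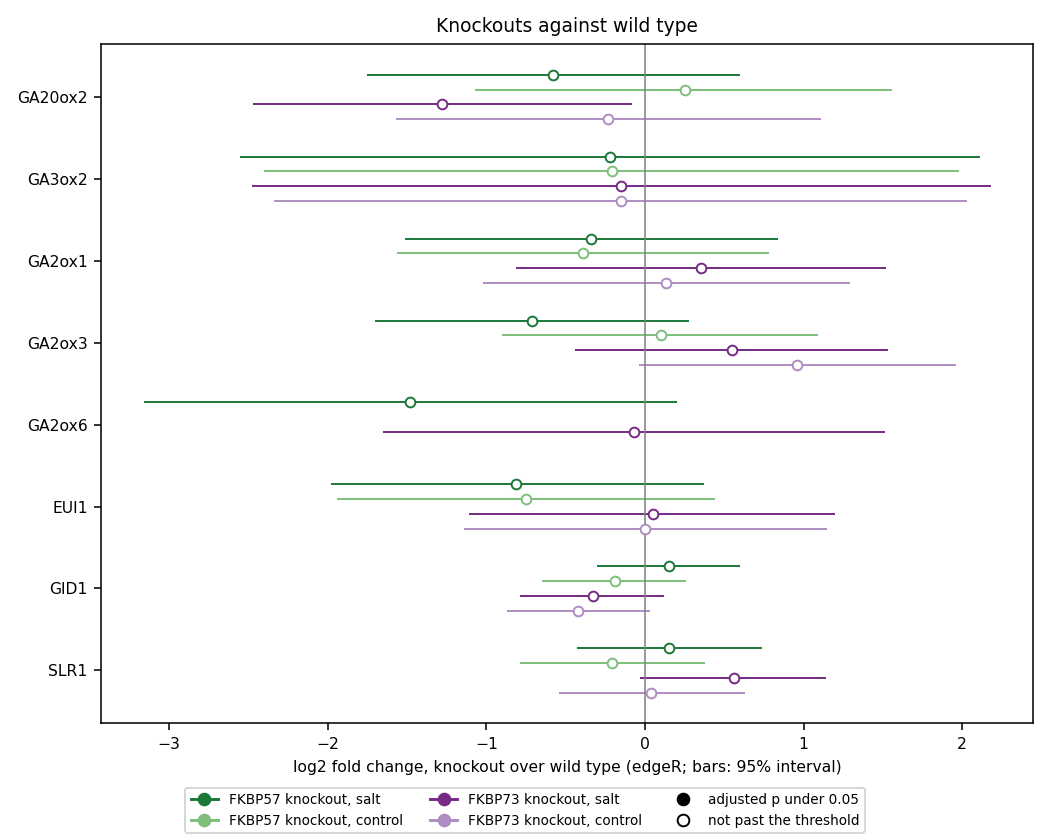
Log2 fold change of each gibberellin gene in the FKBP57 and FKBP73 knockouts against wild type, under salt and in control, with 95% confidence intervals; GA2ox6 is drawn under salt only, since its control counts are 0 to 4 per group. No point is filled, as none passed an adjusted p of 0.05; the farthest estimates are GA2ox6 in the FKBP57 knockout under salt, at −1.48, and GA20ox2 in the FKBP73 knockout under salt, at −1.28.

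The salt response itself was compared between genotypes as the difference of log2 fold changes, knockout minus wild type. The 2 comparisons share the wild-type libraries. No member was called by edgeR's quasi-likelihood test in the FKBP57 knockout or in the FKBP73 knockout, and 0% of all genes were called in either. At an unadjusted p under 0.05 the count was 0 members in each, and DESeq2 also called 0 members. Over all genes, 1612 in the FKBP57 knockout and 777 in the FKBP73 knockout had an unadjusted p under 0.05, and DESeq2 called 26 and 4.

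For GA20ox2 the difference was −0.82 in the FKBP57 knockout (95% interval −2.67 to 1.02) and −1.05 in the FKBP73 knockout (−2.90 to 0.81). Without wild-type salt 2 these differences were 0.01 in the FKBP57 knockout and −0.21 in the FKBP73 knockout. For GA2ox3 it was −0.81 (−2.24 to 0.62) in the FKBP57 knockout and −0.42 (−1.85 to 1.01) in the FKBP73 knockout. For GID1 it was 0.35 (−0.31 to 1) in the FKBP57 knockout and 0.09 (−0.56 to 0.74) in the FKBP73 knockout. For SLR1 the difference was 0.36 (−0.47 to 1.19) in the FKBP57 knockout and 0.51 (−0.32 to 1.34) in the FKBP73 knockout. All of these intervals include 0, and those of the oxidases are wide enough to hold a difference of several fold in either of the knockouts. That GA2ox3 was called under salt in wild type and not in the knockouts is therefore not shown to be a difference between genotypes.

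The rest of the pathway was read from 22 further identifiers, listed from prior knowledge by role, because no table used here pairs these identifiers with names. Of these 21 were in the count table and 16 passed the low-count filter. Under salt, 2 rose and 0 fell in the FKBP57 knockout, 2 rose and 2 fell in the FKBP73 knockout, and 2 rose and 1 fell in wild type, beside 6.32%, 14.3% and 24.5% of all genes called in these comparisons. Averaged over genotypes 3 rose and 4 fell, beside 42.8% of all genes. With 16 identifiers these counts are given as a description. Their median log2 fold change was −0.20 in the FKBP57 knockout, 0.16 in the FKBP73 knockout and 0.33 in wild type.

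Both identifiers that rose in each genotype were in the list of other 2-oxidases, of which 5 were tested. Os05g0514600 averaged 2.49 CPM under salt against 0.265 CPM in control in the FKBP57 knockout (log2 3.16, SE 0.62, adjusted p = 0.0067), 6.13 against 0.382 CPM in the FKBP73 knockout (log2 3.98, SE 0.62, adjusted p = 0.00072) and 4.51 against 0.539 CPM in wild type (log2 3.04, SE 0.59, adjusted p = 0.0023). Os02g0630300 averaged 1.25 CPM under salt against 0.108 CPM in control in the FKBP57 knockout (log2 3.58, SE 0.84, adjusted p = 0.018), 2.56 against 0.201 CPM in the FKBP73 knockout (log2 3.63, SE 0.78, adjusted p = 0.0061) and 1.82 against 0.155 CPM in wild type (log2 3.62, SE 0.79, adjusted p = 0.0051). The control means of Os02g0630300 lay under the filter's level of 0.316 CPM in each genotype, and that of Os05g0514600 did so in the FKBP57 knockout.

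The identifiers that fell within a genotype were listed for steps of synthesis and 13-oxidation. Os03g0332100, listed for the 13-oxidation that turns gibberellins into less active forms, averaged 2.74 CPM under salt against 8.17 CPM in control in the FKBP73 knockout (log2 −1.57, SE 0.33, adjusted p = 0.0049). In wild type it averaged 4.57 CPM under salt against 11.7 CPM in control (log2 −1.36, SE 0.32, adjusted p = 0.0079). In the FKBP57 knockout its value was −0.59 (SE 0.32, adjusted p = 0.30). Os06g0570100, 1 of 4 listed for the early steps of synthesis, fell in the FKBP73 knockout, at 23.5 CPM under salt against 46.2 CPM in control (log2 −0.98, SE 0.28, adjusted p = 0.029). For a difference in salt response between a knockout and wild type, edgeR called no gene. The 2 tested identifiers listed as other 20-oxidases or 3-oxidases had log2 fold changes between −0.99 and 0.86 in the 3 genotypes, and the 4 tested for other signalling components between −0.89 and 0.59, with no call within a genotype by edgeR's quasi-likelihood test. Averaged over genotypes, 1 identifier of each of these lists was called lower, beside 42.8% of all genes.

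**Figure D5:**
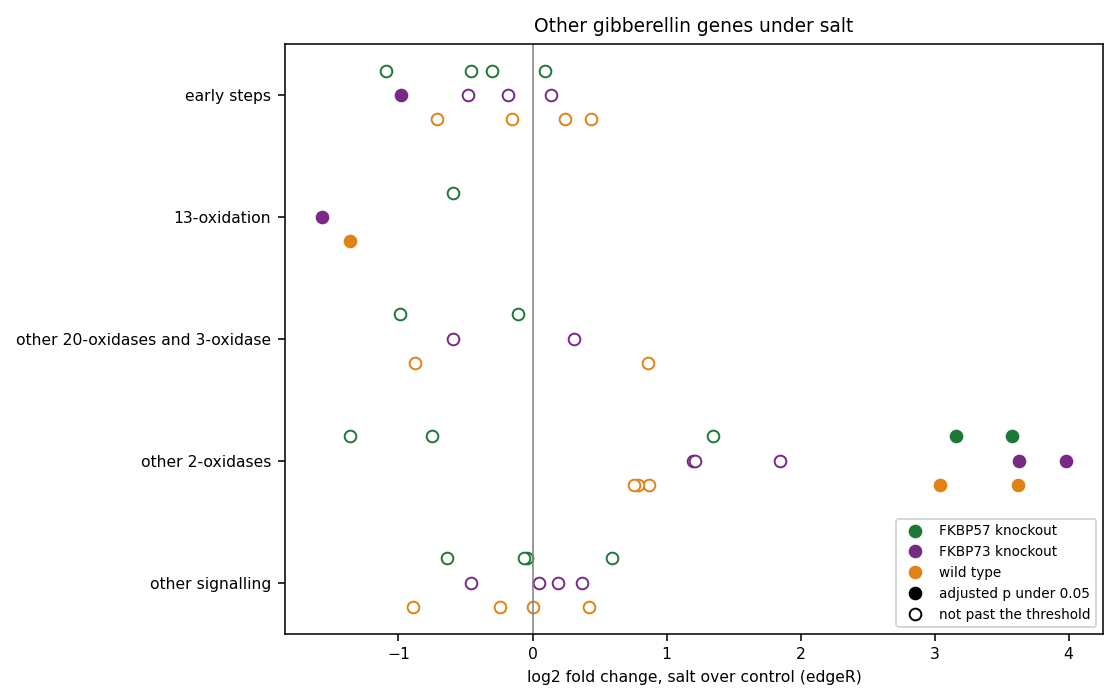
Log2 fold change under salt against control of the 16 tested further gibberellin identifiers, grouped by their listed role, in the FKBP57 knockout, the FKBP73 knockout and wild type; filled points have an adjusted p under 0.05. In the list of other 2-oxidases, 2 identifiers lie between 3.04 and 3.98 in all 3 genotypes, while early-step and signalling identifiers lie between −1.09 and 0.59.

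The genes whose levels ran most like those of a member were sought among those averaging 10 CPM or more, by Pearson's r of log2 CPM over the 18 libraries. For GID1 they were Os01g0948200 (r = 0.955) and Os02g0644000 (r = 0.945), with r of 0.88 and 0.53 over the 9 salt libraries and 0.81 and 0.67 over the 9 control libraries. For GA20ox2 they were Os01g0267100 (r = 0.941) and Os03g0826700 (r = 0.924). For SLR1 they were Os08g0564300 (r = 0.894) and Os02g0529600 (r = 0.874). For the pair most like GA20ox2, r was 0.91 and 0.74 over the 9 salt libraries and 0.16 and 0.11 over the 9 control libraries. For the pair most like SLR1, r was 0.88 and 0.89 over the 9 salt libraries and 0.93 and 0.90 over the 9 control libraries. Each pair was picked as the highest of 12952 or 12953 genes compared, which by itself favours a high r over the 18 libraries. These values are descriptions, also since the libraries share groups and depth.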

How the data were processed

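The table of whole-number read counts per gene was used as deposited by the authors. Tools named in the submitters' processing notes are HTSeq 0.9.1 and fastp 0.22.0, with IRGSP-1.0 as genome build; for the aligner, annotation release, filters and strand setting, "not given in the sources used here" applies, so overlapping, antisense or near-identical genes may share reads. All 18 count columns matched a sample label. By symbol, 4 members (GA20ox2, EUI1, GID1 and SLR1) were found in the RefSeq gene table, with 0 overlapping genes there.

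In R 4.3.3, edgeR 4.0.16 was run on the counts with TMM scaling, filterByExpr (minimum count 10, minimum total 15) and glmQLFit over 6 group means, which share 1 estimate of spread with 12 residual degrees of freedom. The filter kept 25957 of 37863 genes, holding 99.97% of all counts. There were 10 contrasts, each adjusted by Benjamini-Hochberg over all tested genes and called under 0.05. The test was first tried on simulated counts with known changes.

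Alternatives were RLE scaling, DESeq2 1.42.0, no low-count filter, a filter at a mean of 5 CPM, a fit of the compared groups alone, a replicate block, each library left out, and the 3 libraries that stood apart left out together. Those 3 were picked by eye in an earlier examination of these data. Replicate pairs of a group had r between 0.844 and 0.98 and none matched within sampling noise. All 8 members are named; further identifiers are printed where called with at least 1 CPM in the higher group, at most 2 in each direction. The members, lists and tests were chosen with earlier results of these data known.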

Additional observations from a re-analysis of the deposited data

How the results depend on the processing

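Of 14 salt changes of members called in a genotype or in the average, 0 turned direction in any alternative, and of 1169 alternative values of members 99 changed sign, 0 of them past the threshold. With a filter at a mean of 5 CPM only GA2ox3, GID1 and SLR1 were tested, and the members called were 1 in the FKBP57 knockout, 1 in the FKBP73 knockout, 2 in wild type and 2 in the average. Fitted on its own groups, the FKBP57 knockout had 1 member called. Leaving out a library gave 1 to 3 called members in the FKBP57 knockout and 1 to 2 in the FKBP73 knockout. The values that changed sign were not called. EUI1 under salt was −0.04 in wild type with the replicate block. Leaving out a library gave EUI1 values under salt of −0.13 to 0.04 in the FKBP57 knockout, −0.24 to 0.28 in the FKBP73 knockout and −0.34 to 0.49 in wild type. It gave GA2ox1 values of −0.66 to 0.53 in the FKBP57 knockout, −0.43 to 0.1 in the FKBP73 knockout and −0.38 to 0.01 in the average, and SLR1 values of −0.28 to 0.28 in the FKBP57 knockout and −0.11 to 0.1 in the average. Differences in response ran from −1.16 to 0.01 for GA20ox2 in the FKBP57 knockout, the highest without wild-type salt 2, and in the FKBP73 knockout from −0.77 to 0.09 for GA2ox3 and from −0.07 to 0.29 for GID1. The difference in GID1 response for the FKBP73 knockout was −0.08 without the 3 libraries that stood apart. SLR1 in the average was −0.01 with RLE scaling, −0.01 with DESeq2, −0.02 with the 5 CPM filter and −0.23 without those 3 libraries, and in the FKBP57 knockout −0.45 without them. The causes were not tested. Replicate numbers are shared labels only: same-numbered deviations correlated from −0.53 to 0.73, and not every library matched its own number best. With the replicate block the members called were 2 in the FKBP57 knockout, 2 in the FKBP73 knockout, 4 in wild type, 4 in the average and 0 in every comparison with wild type; GA2ox6 had an adjusted p of 0.085 in the FKBP57 knockout and 0.065 in the FKBP73 knockout. The intervals of GA2ox6, EUI1, GA20ox2, GA3ox2 and GA2ox1 are wide, so moderate changes in them could be missed.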
